A study of Homo sapiens with 3 samples.

Results

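Integrins are cell-surface receptors made of 1 alpha and 1 beta subunit, and they fasten cells to the surrounding matrix. The alpha subunit largely sets which ligand is bound, while the beta tail binds talin and kindlin, the proteins that switch the receptor on and tie it to actin. Kidney tubule cells rest on a laminin-rich basement membrane, and laminin receptors are the classical integrins of that epithelium. The 10 integrin subunit genes described here were taken by name from a table of 44591 genes, and all 10 were found. They are 5 alpha genes (*ITGA2*, *ITGA3*, *ITGA5*, *ITGA6* and *ITGAV*) and 5 beta genes (*ITGB1*, *ITGB3*, *ITGB4*, *ITGB5* and *ITGB8*), out of 26 human integrin subunit genes in the table.

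RNA was sequenced from Caki-1, an established human line that the labels assign to clear cell renal cell carcinoma, 48 h after transfection. The cells carried a control siRNA (si-Control) or an siRNA to *RBCK1* (si-RBCK1 #1 or si-RBCK1 #2), which the labels call si-HOIL-1#1 and si-HOIL-1#2, and the methods give 10 nmol/L for transfections in general. RBCK1, also named HOIL-1, is a ubiquitin ligase of the linear ubiquitin chain assembly complex, and the study asked what its loss does in renal cancer cells. With a single library for each condition there is no replicate check, and nothing was tested. Levels always follow the order si-Control, si-RBCK1 #1, si-RBCK1 #2, and paired ratios give si-RBCK1 #1 first.

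Levels are given in RPKM, reads scaled by gene length and by library total, which allows genes of different length to be set side by side. Ratios are log2 ratios to si-Control on log2(RPKM + 1), which understates changes of low genes. Whole reads were recovered from the RPKM values, and 95% intervals on reads (exact Clopper-Pearson for ratios, exact Poisson for levels) cover counting error only and carry no pseudocount. For *ITGA1*, *ITGA2*, *ITGB3* and *ITGB5* the recovered reads are lower bounds that may be well short of the true reads, which would make their intervals too wide. The library totals behind the values were 36926834, 40442939 and 36344428 reads. *RBCK1* itself stood at 33.3, 9.97 and 12.3 RPKM, so it was lower with both siRNAs. Of 9 markers of renal carcinoma epithelium, 5 reached a mean of 1 RPKM, among them *PAX8* at 124, 82.5 and 107 RPKM. *CA9*, a defining marker of clear cell carcinoma, did not exceed 0.0636 RPKM, and *PAX2* did not exceed 0.0642 RPKM. *LHX1* (0.371, 1.38 and 1.15 RPKM) and *KRT19* (0.423, 0.975 and 1.38 RPKM) also fell short of that mean. Summed leukocyte markers lay between 0.169 and 0.581 RPKM, with *CD3E* at 0 in all libraries. Endothelial markers summed to between 0.0729 and 0.0863 RPKM and platelet markers to between 0.370 and 0.947 RPKM. Fibroblast markers summed to between 4.16 and 5.77 RPKM, mostly *COL1A1* (4.68, 3.21 and 4.41 RPKM). The 9 renal epithelial markers summed to 309, 417 and 545 RPKM (*KRT8* alone gave 65.6, 172 and 238 RPKM), and the part of this in the integrin values was not tested. In bulk RNA, fewer cells of a type and less RNA per cell cannot be told apart.

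The sense strands of both siRNAs are shown because they define the conditions, in lower case with the stretch paired to guide positions 2 to 8 (the seed) in capitals.
si-RBCK1 #1: ggtgcaccttcATCAACAa
si-RBCK1 #2: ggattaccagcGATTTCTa
The full strands occurred in the longest protein-coding transcript (GENCODE v29) of 0 of the 10 integrin genes. The #1 seed match ATCAACA occurred in that of *ITGA2* (2 sites), *ITGA3* (2 sites), *ITGAV* (1 site) and *ITGB3* (1 site), on the transcript strand only, and 23.8% of 10568 expressed protein-coding genes held it. The #2 seed match GATTTCT occurred in *ITGA2*, *ITGAV* and *ITGB8* (1 site each), against 29.2% of those genes. Neither was found in the transcripts searched for *ITGB1*, *ITGA5*, *ITGA6*, *ITGB4* or *ITGB5*.

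The integrin transcripts of Caki-1 were dominated by *ITGB1*, the common beta chain, and *ITGA3*, the alpha chain of a laminin receptor. Only 101 genes in the table had a mean level at or above that of *ITGB1*, and 132 reached that of *ITGA3*, these genes included. With si-Control the order was *ITGB1* (679 RPKM), *ITGA3* (475 RPKM), *ITGAV* (93.2 RPKM), *ITGA5* (51.9 RPKM), *ITGB5* (26.3 RPKM), *ITGB3* (25.1 RPKM), *ITGA6* (5.53 RPKM), *ITGB8* (2.95 RPKM), *ITGA2* (1.14 RPKM) and *ITGB4* (0.613 RPKM). The neighbours *ITGB5* (25.2 to 27.4 RPKM) and *ITGB3* (24.0 to 26.1 RPKM) had overlapping counting intervals. Without replicates, the spread between cultures behind this order is unknown.

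**Figure D1:**
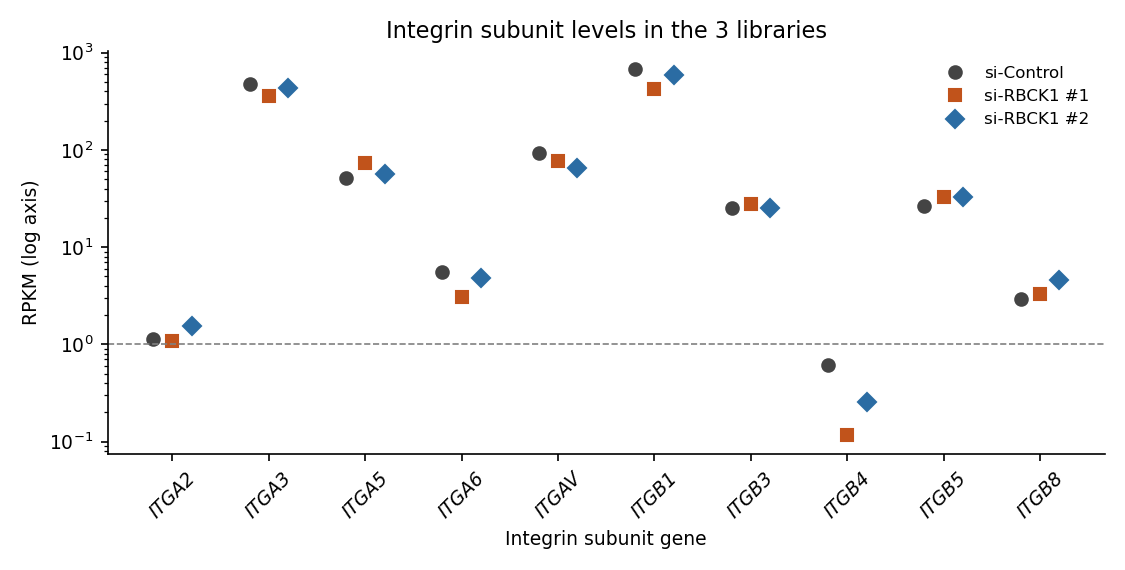
RPKM (log axis) of the 10 integrin subunit genes in the si-Control, si-RBCK1 #1 and si-RBCK1 #2 libraries, 1 point per library, with a dashed line at 1 RPKM. *ITGB1* and *ITGA3* lie above 360 RPKM in every library, and *ITGB4* lies below 1 RPKM in every library.

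On log2(RPKM + 1), the members above 1 RPKM lay within 2-fold of si-Control with both siRNAs, as most genes of the table did. Of the 10 genes, 9 reached a mean of 1 RPKM (*ITGB4* did not), and 0 of these 9 differed at least 2-fold with si-RBCK1 #1 (6.18% of all 12403 genes above that level did), with si-RBCK1 #2 (4.76%) or with both in the same direction (2.87%). At least 1.5-fold, 2 of 9 differed with si-RBCK1 #1 (23.7% of all genes), namely *ITGB1* and *ITGA6*, both lower (11.6%), and 0 were higher (12.1%). With si-RBCK1 #2, 0 of 9 passed 1.5-fold in either direction (20.6%), nor did any with both (13.7%). On reads without the pseudocount, *ITGB8* with si-RBCK1 #2 did pass 1.5-fold, at 156% of si-Control (log2 ratio 0.64, 0.53 to 0.76). The share of all genes on that scale is not given here. At any size, 5 of 9 were lower with si-RBCK1 #1 (48.4%) and 4 of 9 with si-RBCK1 #2 (46.4%). The median log2 ratio of the 9 genes was -0.03 with si-RBCK1 #1 and 0.02 with si-RBCK1 #2, beside 0.02 and 0.03 over all genes, and the median with si-RBCK1 #2 turned negative when libraries were scaled to equal medians (-0.030) or equal totals (-0.013).

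Between the siRNAs, 4 of 9 genes were lower in both libraries (*ITGA3*, *ITGA6*, *ITGAV* and *ITGB1*; 38.2% of all genes) and 4 were higher in both (*ITGA5*, *ITGB3*, *ITGB5* and *ITGB8*; 43.3%). *ITGB3* with si-RBCK1 #2 turned negative under either other scaling. The same si-Control library stands in both ratios. *ITGA2* had ratios of -0.03 and 0.26.

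*ITGB1* encodes the beta chain shared by most integrins and lies on chromosome 10 from 33189246 to 33247293 on the minus strand (hg19, the build named in the submitters' processing notes). The libraries gave 679, 419 and 583 RPKM (102483, 69199 and 86650 reads). The si-RBCK1 #1 library was the lowest and si-RBCK1 #2 lay between it and si-Control. Log2 ratios were -0.70 and -0.22, and on reads they were -0.70 (-0.71 to -0.68) and -0.22 (-0.23 to -0.21). Of the 1276 genes whose mean reached 50 RPKM, 6.50% had a ratio as low or lower with si-RBCK1 #1 and 22.6% with si-RBCK1 #2. The pseudogene *ITGB1P1* on chromosome 19 (14733033 to 14734100), picked after values were seen, was listed at 87.7, 59.0 and 66.4 RPKM, which was 12.9%, 14.1% and 11.4% of *ITGB1*. Reads of *ITGB1* and its pseudogene may have been split between them in counting, so the level of each is uncertain.

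The laminin receptors are built from *ITGA3* or *ITGA6* with *ITGB1*, and from *ITGA6* with *ITGB4*. *ITGA3*, on chromosome 17 from 48133332 to 48167849, gave 475, 363 and 434 RPKM (88252, 73821 and 79438 reads). Both siRNA libraries were below si-Control, with log2 ratios of -0.39 and -0.13 (on reads -0.39, -0.40 to -0.37, and -0.13, -0.14 to -0.12). *ITGA6*, on chromosome 2 from 173292082 to 173371183, gave 5.53, 3.08 and 4.85 RPKM (1242, 756 and 1072 reads). Here too si-RBCK1 #1 was lowest, and the read ratios were -0.85 (-0.98 to -0.72) and -0.19 (-0.31 to -0.07).

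*ITGB4*, the beta chain of hemidesmosomes, which anchor epithelia to laminin through plectin and keratin, was the scarcest of the 10. It lies on chromosome 17 from 73717408 to 73753899 and gave 0.613, 0.116 and 0.254 RPKM (140, 29 and 57 reads). Both siRNA libraries lay below the counting interval of si-Control (0.516 to 0.723 RPKM). On reads without the pseudocount the log2 ratios were -2.40 (-3.03 to -1.82) and -1.27 (-1.74 to -0.82). *ITGB4* was the single member past 2-fold on that scale, for which the share of all genes is not given here. With the pseudocount the ratios were -0.53 and -0.36, because the gene lies below 1 RPKM.

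The receptors for fibronectin and vitronectin recognise the arginine-glycine-aspartate (RGD) motif, and here their alpha chains went apart. *ITGA5*, the alpha chain of the classical fibronectin receptor, lies on chromosome 12 from 54789045 to 54813050 and gave 51.9, 73.0 and 57.1 RPKM (8138, 12545 and 8827 reads). It was highest with si-RBCK1 #1, with read ratios of 0.49 (0.45 to 0.53) and 0.14 (0.10 to 0.18). *ITGAV*, which pairs with several beta chains, lies on chromosome 2 from 187454790 to 187545629 and gave 93.2, 77.7 and 65.7 RPKM (24815, 22671 and 17229 reads). It was lowest with si-RBCK1 #2, with read ratios of -0.26 (-0.29 to -0.24) and -0.50 (-0.53 to -0.48). The level of *ITGAV* was 1.80 times that of *ITGA5* with si-Control, 1.07 times with si-RBCK1 #1 and 1.15 times with si-RBCK1 #2.

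Of the beta chains that pair with *ITGAV*, *ITGB3*, *ITGB5* and *ITGB8* are members. *ITGB5*, a vitronectin receptor chain on chromosome 3 from 124480795 to 124606152, gave 26.3, 32.5 and 33.1 RPKM (2125, 2877 and 2638 reads). The siRNA libraries were close to each other, with read ratios of 0.31 (0.22 to 0.39) and 0.33 (0.25 to 0.42). *ITGB8*, a chain known for activating latent TGF-beta, lies on chromosome 7 from 20370725 to 20455382 and gave 2.95, 3.26 and 4.61 RPKM (956, 1158 and 1471 reads). It was highest with si-RBCK1 #2, with read ratios of 0.15 (0.02 to 0.27) and 0.64 (0.53 to 0.76). A long noncoding RNA on the opposite strand, *LOC101927811*, was at 0.953, 0.0272 and 0.908 RPKM, and whether the counting used strand is not given in the sources used here.

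*ITGB3*, the other vitronectin receptor chain, lies on chromosome 17 from 45331208 to 45390077 and gave 25.1, 28.1 and 25.4 RPKM (2264, 2780 and 2258 reads). Its read ratios were 0.16 (0.08 to 0.25) and 0.02 (-0.07 to 0.10), the latter reaching across 0. *THCAT158*, a noncoding RNA on the opposite strand, was at 1.36, 0.286 and 0.989 RPKM. *ITGA2*, the alpha chain of a collagen receptor on chromosome 5 from 52285156 to 52390609, was near the limit of 1 RPKM, at 1.14, 1.09 and 1.56 RPKM (166, 174 and 224 reads). Its read ratios were -0.06 (-0.38 to 0.25) and 0.46 (0.16 to 0.75), so no difference with si-RBCK1 #1 was detectable at this depth.

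**Figure D2:**
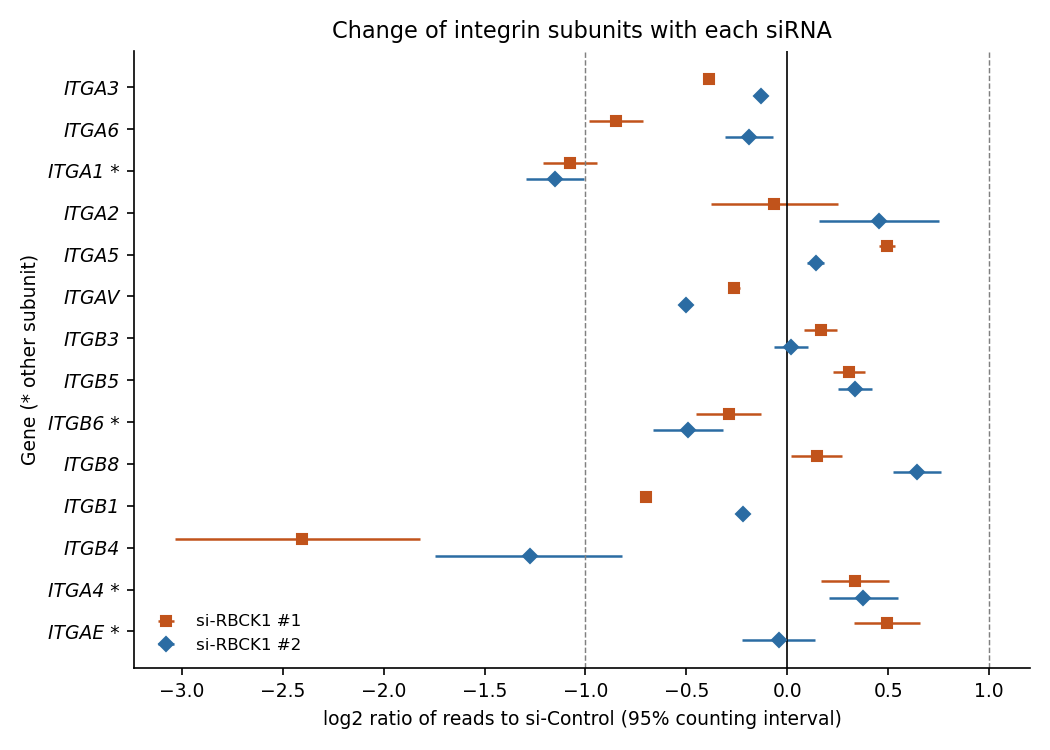
Log2 ratio of recovered reads to si-Control for 14 integrin genes (rows) with si-RBCK1 #1 (squares) and si-RBCK1 #2 (diamonds); bars are 95% counting intervals from 1 library per condition, dashed lines mark 2-fold, and asterisks mark subunits outside the 10. *ITGA1* and *ITGB4* lie beyond -1 with both siRNAs, and *ITGB1* lies further from 0 with si-RBCK1 #1 (-0.70) than with si-RBCK1 #2 (-0.22).

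Set directly against each other, the siRNA libraries do not involve si-Control. With si-RBCK1 #1 against si-RBCK1 #2, 6 of 9 genes were lower and 3 higher (51.8% of all genes were lower). On log2(RPKM + 1), 0 of 9 differed at least 1.5-fold (6.18% of all genes). On reads without the pseudocount *ITGA6* did, and the share of all genes on that scale is not given here. *ITGA6* had a log2 ratio of -0.52 (on reads -0.66, -0.79 to -0.52), *ITGB1* of -0.48 (on reads -0.48, -0.49 to -0.46) and *ITGB8* of -0.40 (on reads -0.50, -0.61 to -0.39). *ITGA2* had -0.29 (on reads -0.52, -0.81 to -0.23), so the order of these genes depends on the scale. *ITGA5* (0.35) and *ITGAV* (0.24) were higher with si-RBCK1 #1. For *ITGB5* the interval of the difference on reads, -0.11 to 0.05, covered 0.

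The makeup of the integrin transcripts was computed as each gene's share of the summed RPKM over all alpha or all beta subunit genes in the table. *ITGA3* held 74.2% of alpha RPKM with si-Control, 68.5% with si-RBCK1 #1 and 75.7% with si-RBCK1 #2. *ITGAV* held 14.6%, 14.7% and 11.5%, and *ITGA5* held 8.10%, 13.8% and 9.96%. The share of *ITGA5* was thus largest with si-RBCK1 #1 and that of *ITGAV* smallest with si-RBCK1 #2. Among beta chains, *ITGB1* held 92.0%, 86.1% and 89.8%, *ITGB5* 3.56%, 6.68% and 5.10%, and *ITGB3* 3.40%, 5.78% and 3.91%. Since shares must sum to the whole, a lower *ITGB1* raises the share of every other beta chain. Summed beta RPKM was 738, 486 and 650, and summed alpha RPKM was 640, 529 and 573. The alpha chains that can pair with *ITGB1* summed to 0.937 times the *ITGB1* level with si-Control, 1.25 times with si-RBCK1 #1 and 0.977 times with si-RBCK1 #2, so they exceeded it only in the si-RBCK1 #1 library of these 3. These are transcript levels, and surface receptors were not measured.

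**Figure D3:**
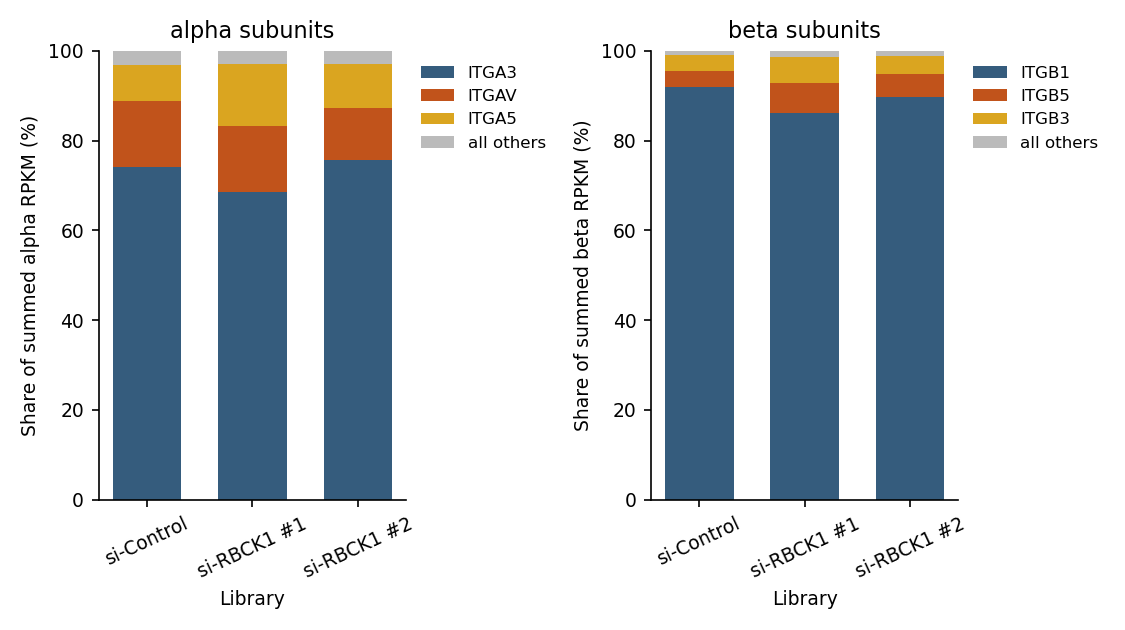
Share (%) of the summed alpha RPKM (left) and summed beta RPKM (right) held by the leading subunit genes in each library, with the remaining genes in grey; 1 library per bar. *ITGA3* holds 68.5% to 75.7% of alpha RPKM and *ITGB1* 86.1% to 92.0% of beta RPKM.

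Of the 16 other integrin subunit genes, 12 were below 1 RPKM in every library (at most 0.438 RPKM), among them *ITGB2*, *ITGAL*, *ITGAM* and *ITGAX* of leukocytes and *ITGA2B* of platelets. The 4 expressed ones were *ITGA1*, *ITGA4*, *ITGAE* and *ITGB6*. *ITGA1*, a collagen receptor chain, gave 7.42, 3.52 and 3.34 RPKM (1314, 683 and 583 reads). Both siRNA libraries were below the si-Control counting interval of 7.02 to 7.83 RPKM, with read ratios of -1.08 (-1.21 to -0.94) and -1.15 (-1.29 to -1.01). On the log2(RPKM + 1) scale these were -0.90 and -0.95, the furthest from 0 of the 13 integrin genes above the 1 RPKM limit. The longest transcript of *ITGA1* held the #2 seed match at 2 sites and the #1 seed match at 0 sites. For *ITGB6* there was 1 #2 site, for *ITGA4* 2 #1 sites and for *ITGAE* 1 #1 site. Whether these sites bear on the levels was not tested. *PELO*, a gene nested in *ITGA1* on the same strand, was at 15.0, 19.6 and 18.1 RPKM, and strand cannot separate reads of these genes where they overlap.

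*ITGB6*, an epithelial partner of *ITGAV*, was at 3.89, 3.18 and 2.76 RPKM, with read ratios of -0.29 (-0.45 to -0.13) and -0.49 (-0.66 to -0.32). *ITGA4*, a fibronectin receptor chain best known from leukocytes, was at 1.81, 2.28 and 2.34 RPKM, with read ratios of 0.34 (0.17 to 0.50) and 0.38 (0.21 to 0.55). Both siRNA libraries were thus below si-Control for *ITGB6* and above it for *ITGA4*. *ITGAE* was at 3.60, 5.07 and 3.49 RPKM, with read ratios of 0.49 (0.33 to 0.66) and -0.04 (-0.22 to 0.14). It overlaps *GSG2* (2.61, 5.44 and 5.02 RPKM) and the antisense gene ENSG00000262692.1 (2.33, 8.92 and 6.71 RPKM) on the opposite strand. If strand was not used, reads of *ITGAE* cannot be told apart from those of these genes where they overlap. By ligand, summed RPKM of collagen-binding alpha chains was 9.08, 4.99 and 5.20. Most of this sum was *ITGA1* (7.42, 3.52 and 3.34 RPKM), whereas *ITGA2* (1.14, 1.09 and 1.56 RPKM) was not lower with both siRNAs, and *ITGA10* and *ITGA11* lay below 1 RPKM. The sum of laminin-binding alpha chains was 480.4, 366 and 439, and that of RGD-binding alpha chains was 145, 151 and 123.

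Genes around the integrins were taken from lists written from general knowledge but with earlier results of these data known, and 116 partner genes passed 1 RPKM. At least 1.5-fold in the same direction with both siRNAs, 9 were higher and 7 lower, beside 7.47% and 6.24% of all genes. Among 22 activators and scaffold genes, 2 were higher (*ACTN4* and *VCL*) and 2 lower (*LPP* and *FERMT2*). *FERMT2* encodes kindlin-2, which binds beta tails beside talin, and it gave 33.9, 17.9 and 17.9 RPKM, a log2 ratio of -0.88 with each. *VCL* (vinculin, which links talin to actin) was at 29.1, 47.1 and 49.1 RPKM, and *ACTN4* (an actin crosslinker) at 79.5, 144 and 167 RPKM. *LPP*, a zyxin relative at adhesions, was at 13.8, 4.37 and 5.78 RPKM. The scaffold genes thus did not share 1 direction.

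Among 17 kinases and adaptors that act below integrins, 3 were higher and 2 lower by the same limit, beside 7.47% and 6.24% of all genes. The Src family kinases *FYN* (4.57, 1.18 and 0.866 RPKM) and *YES1* (62.5, 33.5 and 37.0 RPKM) were the lower ones. The higher ones were *BCAR1*, the adhesion docking protein p130Cas (23.6, 41.3 and 52.2 RPKM), *SHC1*, an adaptor towards Ras (92.1, 186 and 151 RPKM), and *CSK*, the kinase that holds Src family kinases inactive (15.3, 24.9 and 24.6 RPKM). Of 8 integrin inhibitors, 0 passed 1.5-fold in both libraries, and *FLNC*, a filamin, came nearest with log2 ratios of 0.52 and 0.84. *SHARPIN*, which belongs to the same ubiquitin ligase complex as RBCK1 and also holds integrins inactive, gave 19.8, 18.1 and 17.0 RPKM (1325, 1333 and 1125 reads). Its read ratios were -0.12 (-0.23 to -0.01) and -0.21 (-0.33 to -0.10).

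Integrins are taken up and returned to the surface by endocytic proteins, and among 18 such genes 1 was higher and 1 lower by that limit (7.47% and 6.24% of all genes). *EHD1*, which acts in recycling, was at 16.3, 39.7 and 41.6 RPKM, with log2 ratios of 1.23 and 1.29. *DAB2*, a clathrin adaptor for integrins, was at 33.3, 13.1 and 18.8 RPKM, with log2 ratios of -1.28 and -0.79. Of 16 surface proteins known to associate with integrins, 1 passed, the proteoglycan *SDC1* (syndecan-1), at 10.8, 31.9 and 29.0 RPKM with log2 ratios of 1.48 and 1.35. Of 6 hemidesmosome partners, *PLEC* (plectin) passed at 27.1, 51.4 and 70.1 RPKM, with log2 ratios of 0.90 and 1.34, while its integrin partner *ITGB4* lay below 1 RPKM throughout.

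**Figure D4:**
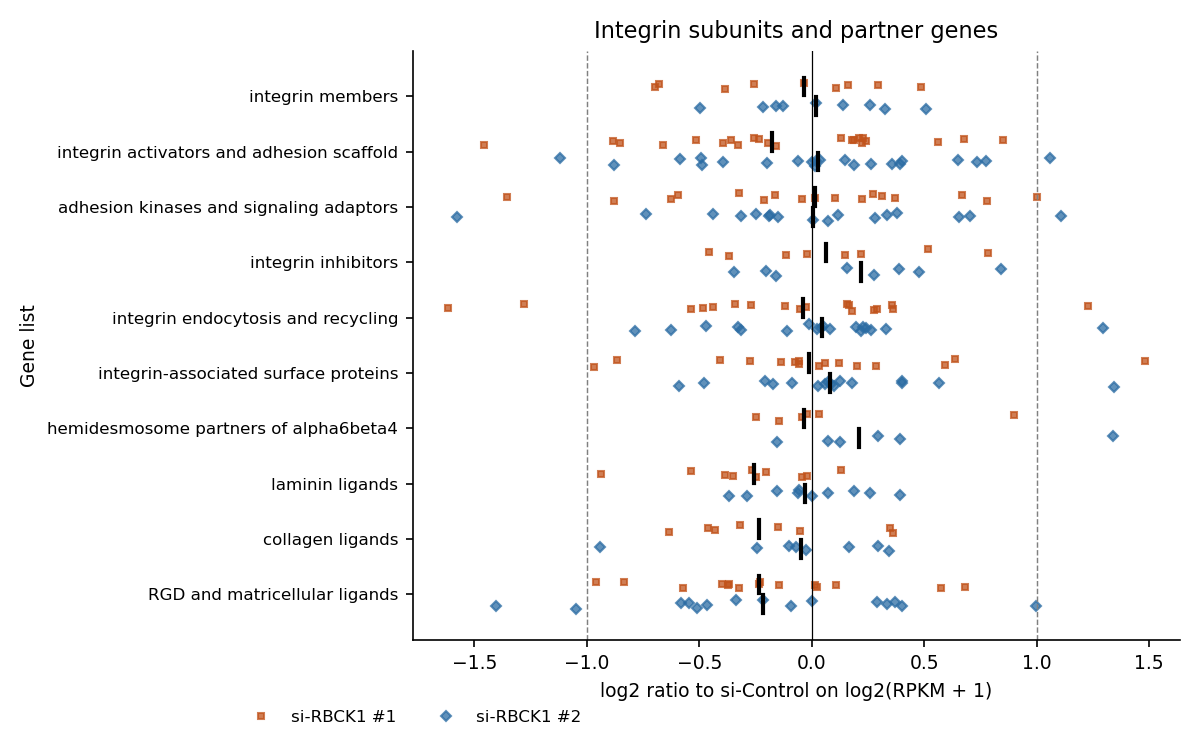
Log2 ratio to si-Control on log2(RPKM + 1) for the integrin members and 9 partner lists with si-RBCK1 #1 (squares) and si-RBCK1 #2 (diamonds); each point is 1 gene above the 1 RPKM limit, black ticks are medians, dashed lines mark 2-fold and vertical scatter within a row is arbitrary. All 9 integrin members lie inside the 2-fold lines. Of 116 partner genes, 2 (*SDC1* and *EHD1*) lie above them and 2 (*LPP* and *FYN*) below them with both siRNAs. Among all genes, 2.87% passed 2-fold with both in the same direction.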

How the data were processed

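RNA from 3 Caki-1 cultures was sequenced after ribosomal RNA removal with a directional kit, paired-end, 1 library per condition. Submitters' processing notes name FastQC, Trimmomatic, TopHat2, HTSeq and hg19. The unit of the authors' deposited values is not named in the table and was taken as RPKM from their steps. Columns with the authors' own control and treated values, fold change, p-value and q-value were not used, and 0 other per-sample columns were left out. No test was made, since each condition had 1 library, and siRNAs were not averaged. Members, lists and limits were chosen with earlier results of these data known. Named genes are the members, expressed integrins, *RBCK1*, *SHARPIN* and, per partner list, up to 6 genes past 1.5-fold with both siRNAs, or the nearest 1. *ITGB1P1*, overlapping genes and the ligand genes *FN1* and *TGFB1* were added after values were seen. 1 entry (*EGR1*, si-Control) is not a number and was left out.

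The total behind each RPKM column was found from genes of up to 200 nt, of which 99.0% to 99.5% per library gave whole reads within the rounding of the listed values. Each gene's smallest whole reads and length (up to 50000 nt) were then searched, so reads are lower bounds. The length found for *ITGA2* was 3955 nt against 7869 nt for its longest GENCODE v29 transcript, which would make its intervals too wide. Steps were tested on simulated data. Alternatives were pseudocounts of 0.1 and 5 RPKM, no filter or 5 RPKM, other scalings, recovered reads and limits of 1.5-fold and 4-fold. Protein sequences were not used here. Software was matplotlib 3.10.9, scipy 1.17.1, numpy 2.4.6, pandas 2.3.3 and Python 3.11.15.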

Additional observations from a re-analysis of the deposited data

How the results depend on the processing

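No paired analysis was possible because there was 1 library per condition, and leaving out a replicate was not possible for the same reason. The count of members at least 2-fold changed stayed at 0 under every alternative chosen beforehand except the 1.5-fold limit, which gave 2 with si-RBCK1 #1, as a looser limit can. Some of these alternatives could not have raised the count, namely the 4-fold limit, the filter of 5 RPKM and the pseudocount of 5 RPKM. Without a filter, the pseudocount of 1 RPKM kept *ITGB4* from falling 2-fold, and the alternatives on a smaller pseudocount or on reads left *ITGB4* out. On recovered reads with neither pseudocount nor filter, chosen after seeing the data, the count was 1 with si-RBCK1 #1, 1 with si-RBCK1 #2 and 1 in both. The gene was *ITGB4*, and the share of all genes past 2-fold on that scale is not given here, so the count cannot be judged against it. The median with si-RBCK1 #2 (0.02) changed sign to -0.055 with no filter, -0.055 with a mean of at least 5 RPKM, -0.030 with equal medians, -0.013 with equal totals, -0.034 over all 13 expressed integrin genes and -0.055 on unfiltered reads. *ITGB3* with si-RBCK1 #2 became -0.030 and -0.013 under those scalings. Of 120 single ratios under alternatives, 101 moved from the reported value by no more than the half-width of its counting interval on reads. Another 17 moved further without a change of sign and these 2 changed sign. A filter cannot alter the ratio of a single gene. The 18 ratios with no filter and the 12 with a mean of at least 5 RPKM, all among the 101, could therefore not have moved. For si-RBCK1 #2 the log2 scaling factors were -0.051 (equal medians) and -0.033 (equal totals), larger in size than the *ITGB3* ratio of 0.02. No cause of differences between the libraries was tested.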

Other observations

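Matrix genes that integrins bind were described from the same kind of lists. Of 15 RGD and matricellular ligands above the 1 RPKM limit, 9 were lower and 5 higher with both siRNAs, where 38.2% and 43.3% of all genes were. At least 1.5-fold with both, 1 was lower and 1 higher (6.24% and 7.47% of all genes). *CYR61*, a matricellular ligand of several integrins, gave 420.4, 216 and 158 RPKM (order as before), with log2 ratios of -0.96 and -1.40. *FBN2*, a microfibril protein, was at 8.62, 14.4 and 18.2 RPKM, with log2 ratios of 0.68 and 1.00. *FN1*, the fibronectin bound by the *ITGA5* receptor, was at 2228, 1498 and 1762 RPKM (log2 ratios -0.57 and -0.34). *ITGA5* and the fibronectin receptor chain *ITGA4* lay above si-Control with both siRNAs, whereas *ITGAV* and *ITGB1* lay below it, as *FN1* did. *TGFB1*, whose latent form binds *ITGAV* receptors, was at 13.0, 6.83 and 8.34 RPKM (log2 ratios -0.84 and -0.58).

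Of 8 collagen genes, *COL5A2* alone passed 1.5-fold with both siRNAs, where 13.7% of all genes did in the same direction and 6.24% were lower. It was at 21.1, 13.2 and 10.5 RPKM (log2 ratios -0.64 and -0.94). Of 10 laminin and nidogen genes, 9 were lower with si-RBCK1 #1 and 5 with si-RBCK1 #2, where 48.4% and 46.4% of all genes were lower. By the 1.5-fold limit with both, 0 passed (13.7% of all genes). *LAMB2* came nearest, at 15.7, 7.72 and 11.9 RPKM (log2 ratios -0.94 and -0.37).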
